A study of Mus musculus with 9 samples.

Results

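The binding sites (peaks) of BAP1 were not spread evenly along the mouse genome, and 120 of the 2482 fixed 1 Mb bins of chromosomes 1 to 19 held 20 or more of them. These 120 dense bins are described here. They were selected on the number of peaks alone, after each peak of 200 bp had been assigned to a bin by its middle, and they cover 4.83% of the bins. They held 3454 of the 12863 peaks on these chromosomes, or 26.9%. They also held 4038 of the 21418 protein-coding genes, or 18.9%, with a gene assigned to a bin by its 5′ end. The peaks come from 1 list made from 2 ChIP-Seq samples of Ba/F3 cells, a murine B cell lineage precursor line that depends on IL-3 and was grown with 5% WEHI conditioned medium as its source. In one sample, chromatin of wild type (WT) cells was precipitated with an anti-BAP1 antibody (D1W9B). In the other, cells stably expressing triple-FLAG-tagged murine BAP1 (BAP1_FLAGx3), kept under 2 µg/mL puromycin, were precipitated with anti-FLAG M2. The promoter of this transgene, and whether the line is 1 clone, are not given in the sources used here. The series has 9 samples, and the 4 input and 3 H2AK119ub samples were not analysed here.

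The list gives no height, no score and no value per sample, so neither sample can be set against the other, the depth is unknown and no replicate error can be given. Percentages carry a 95% Wilson interval, which covers counting error only. The same peaks chose the bins, so shares of genes with a peak and of peaks away from genes are descriptions without a test. Bins next to each other are not independent. The cell type could not be checked against marker genes, since a peak list does not measure expression.

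BAP1 is the catalytic subunit of the Polycomb repressive deubiquitinase complex. With an ASXL protein it removes ubiquitin from a lysine of histone H2A (the mark H2AK119ub), which Polycomb repressive complex 1 adds. BAP1 has no known sequence-specific DNA-binding domain of its own and reaches chromatin with partners such as HCF1, FOXK1, FOXK2 and ASXL proteins. Gene density along mammalian chromosomes is uneven, and gene-rich stretches tend to be rich in G and C and in short, broadly used genes.

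The sequences of single peaks show what a dense bin is made of. In each of the 3 bins with the most peaks, the peak closest to a protein-coding TSS and the peak furthest from any TSS are given, read from the plus strand of mm9. Capitals mark exact matches, on either strand, to any of the 13 short motifs that were searched. The first of each pair lies 1 bp from an annotated TSS of Fzr1 (an activator of the anaphase promoting complex), Atp5d (a subunit of ATP synthase) and Ap2a1 (a clathrin adaptor subunit), in that order. The second lies 6422 bp inside Mob3a, 7305 bp after a TSS of Midn, and 18116 bp inside Vrk3, a kinase gene.

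Fzr1, chr10:80841097-80841296: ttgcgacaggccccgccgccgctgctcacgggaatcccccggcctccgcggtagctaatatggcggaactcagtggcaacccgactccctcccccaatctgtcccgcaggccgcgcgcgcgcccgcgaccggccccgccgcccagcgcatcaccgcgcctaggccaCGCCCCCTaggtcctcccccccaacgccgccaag
Mob3a, chr10:80158043-80158242: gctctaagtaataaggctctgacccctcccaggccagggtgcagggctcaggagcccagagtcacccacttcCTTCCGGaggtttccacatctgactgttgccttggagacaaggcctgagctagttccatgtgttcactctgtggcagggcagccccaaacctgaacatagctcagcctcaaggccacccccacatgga
Atp5d, chr10:79604101-79604300: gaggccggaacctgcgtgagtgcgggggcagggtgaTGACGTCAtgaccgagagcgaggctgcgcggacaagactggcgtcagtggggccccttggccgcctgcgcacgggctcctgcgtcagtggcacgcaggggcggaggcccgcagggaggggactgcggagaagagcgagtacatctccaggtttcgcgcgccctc
Midn, chr10:79621188-79621387: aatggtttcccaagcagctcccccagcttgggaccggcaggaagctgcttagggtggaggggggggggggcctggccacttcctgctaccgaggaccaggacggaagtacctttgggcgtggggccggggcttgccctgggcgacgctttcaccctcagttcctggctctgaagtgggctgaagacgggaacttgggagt
Ap2a1, chr7:52184733-52184932: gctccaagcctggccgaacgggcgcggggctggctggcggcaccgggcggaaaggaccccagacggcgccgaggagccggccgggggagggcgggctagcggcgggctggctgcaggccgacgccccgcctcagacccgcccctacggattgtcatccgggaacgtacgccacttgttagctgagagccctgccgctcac
Vrk3, chr7:52025501-52025700: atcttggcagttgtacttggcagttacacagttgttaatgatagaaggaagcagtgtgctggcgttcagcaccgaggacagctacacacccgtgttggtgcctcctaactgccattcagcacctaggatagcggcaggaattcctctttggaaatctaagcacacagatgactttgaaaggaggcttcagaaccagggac

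The 3 peaks at a TSS held 27, 21 and 24 CpG sites in their 200 bp, and the 3 peaks furthest from one held 1, 8 and 4. GC content was 74.5%, 70.5% and 74.5% at the TSSs, against 58.0%, 65.0% and 49.5% away from them. The capitals mark a match to the CTCF motif in the Fzr1 peak, to the ETS motif in the Mob3a peak and to the CRE motif in the Atp5d peak. The other 3 peaks had no match to the motifs searched, which says only that those letters are not in these windows.

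Dense bins were the upper end of a long tail rather than a separate class. Of the 2482 bins, 627 held no peak, 943 held 1 to 4, 499 held 5 to 9 and 293 held 10 to 19. Of the dense bins, 83 held 20 to 29 peaks, 25 held 30 to 39, 6 held 40 to 49 and 6 held 50 or more. The median was 27 peaks per dense bin, with quartiles of 23 and 32 and a range of 20 to 69, beside a median of 2 in the other 2362 bins. Bins just below and just above the threshold had similar values. The 15 bins with 19 peaks had a median of 26 protein-coding genes, of which 52.3% had a peak within 1 kb of a TSS, and 20.4% of their peaks lay further than 1 kb from every TSS. The 12 bins with 20 peaks had a median of 23.5 genes, 57.1% of them with a peak, and 20.0% of their peaks were that far from a TSS.

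Dense bins were rich in protein-coding genes. The number of genes, which did not enter the choice of the bins, had a median of 33.5 per dense bin with quartiles of 24 and 40, against a median of 5 with quartiles of 1 and 10 in the other bins. No dense bin had fewer than 13 genes. Means show how the excess of peaks is made up. A dense bin held 28.8 peaks on average and another bin 3.98, a ratio of 7.23. This ratio is the product of a ratio of 4.57 in genes per bin (33.7 against 7.36) and one of 1.58 in peaks per gene (0.855 against 0.541). A bound gene is one with a peak within 1 kb of any of its TSSs. Peaks at protein-coding promoters divided by the number of bound genes gave 1.16 in dense and 1.09 in other bins, and the mean number of peaks within 1 kb of a bound gene, where 1 peak can count for several genes, was 1.36 and 1.25.

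Across all 2482 bins, the number of peaks followed the number of protein-coding genes with a Spearman rho of 0.78 and a Pearson r of 0.78. It followed the number of CpG-rich promoters more closely, with a rho of 0.87 and an r of 0.90. A promoter was counted as CpG-rich where the CpG ratio, observed over expected, was 0.6 or more in the 500 bp on either side of the 5′ end. Within the 120 dense bins, where the range is cut by the threshold, rho was 0.66 with genes and 0.62 with CpG-rich promoters. All these points share 1 peak list and 1 annotation, and no p-value is given.

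**Figure D1:**
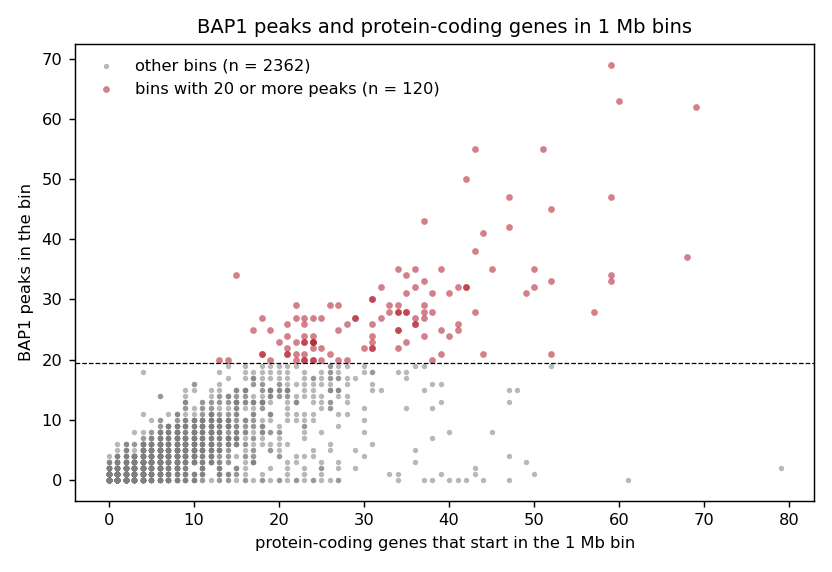
Peaks per 1 Mb bin (vertical axis) against protein-coding genes per bin (horizontal axis), 1 point per bin of chromosomes 1 to 19. The 120 dense bins (red) lie above the dashed line and hold 13 to 69 genes, while some of the other bins (grey) hold up to 79 genes with few peaks.

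Many genes in a bin did not by itself bring many peaks. Of the other bins, 440 held 13 or more protein-coding genes, and 18 held 40 or more, beside 31 dense bins with 40 or more. Those 18 bins were mostly clusters of one gene family. The bin with the most genes of all, chr11:99000001-100000000, held 79 genes, 21 of them keratins of hair and epithelium, and 2 peaks. The next, chr7:110000001-111000000, held 61 genes, 55 of them olfactory receptors, and 0 peaks. A bin of 50 genes at chr2:86000001-87000000, all olfactory receptors, held 1 peak. In the keratin bin and these 2 olfactory receptor bins, 1, 0 and 0 promoters were CpG-rich. Other bins of the 18 held more peaks. The bin chr2:164000001-165000000, with 52 genes, held 19 peaks, and 13 of its promoters were CpG-rich. The bins chr10:128000001-129000000 and chr7:51000001-52000000, with 48 and 47 genes, held 15 peaks each.

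At the same number of genes, dense bins had a larger share of genes bound. Of genes in bins with 30 to 39 genes, 56.2% were bound in the 41 dense bins (800 of 1423) and 26.3% in the 32 other bins (288 of 1095). With 40 to 49 genes the shares were 57.6% in 17 dense bins and 8.99% in 14 other bins, and with 13 to 19 genes 69.5% in 9 dense bins and 41.7% in 260 other bins. The bins were chosen by their peaks, so this ordering is in part built in. The share of CpG-rich promoters, which was not used in the choice, was 52.8% and 24.6% in bins with 30 to 39 genes and 50.1% and 6.90% in bins with 40 to 49 genes.

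**Figure D2:**
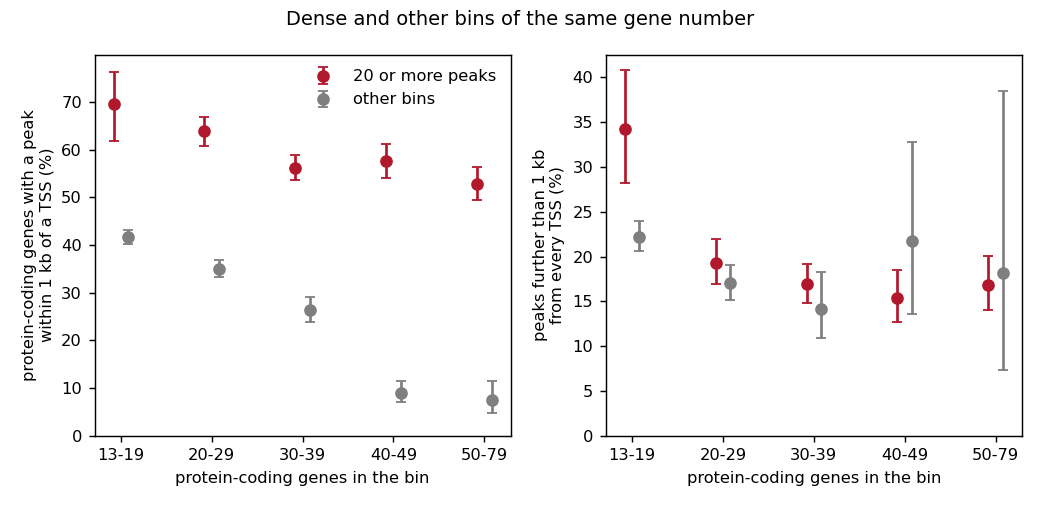
Left, the share of protein-coding genes with a peak within 1 kb of a TSS (%), and right, the share of peaks further than 1 kb from every TSS (%), by the number of protein-coding genes in the bin, for dense bins (red) and other bins (grey). Points are pooled shares and bars are 95% Wilson intervals; the share bound is 69.5% in the smallest and 52.8% in the largest class of dense bins, and 41.7% and 7.44% in the other bins.

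Of the 4038 protein-coding genes in dense bins, 2345 were bound, a share of 58.1% (56.5 to 59.6%), beside 40.3% of all protein-coding genes on chromosomes 1 to 19 and 36.2% (35.5 to 36.9%) in the other bins. These 2345 genes were 27.2% of all bound genes. The share ran from 35.9% to 90.5% over the 120 bins, with a median of 59.3%, and lay above 40.3% in 110 of them. The highest share was in chr5:122000001-123000000, where 19 of 21 genes were bound. The remaining 1693 genes, 41.9%, had no peak near a TSS although they lay in the bins with the most peaks.

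CpG content separated bound from unbound promoters in dense and other bins alike. CpG-rich promoters made up 52.8% of promoters in dense bins and 45.0% elsewhere. Of the 2134 CpG-rich promoters in dense bins, 84.2% (82.6 to 85.6%) were bound, against 67.2% (66.2 to 68.3%) of those elsewhere. Of the 1904 CpG-poor ones, 28.8% (26.8 to 30.9%) were bound, against 10.8% (10.2 to 11.4%). The CpG ratio was taken at the 5′ end of the gene only, whereas a peak near any of its TSSs makes it bound. The peak of a gene counted as CpG-poor can therefore lie at another of its TSSs. A gene can count as bound through a neighbour, since 17.5% of genes in dense bins had the start of another protein-coding gene within 1 kb, compared with 11.1% elsewhere.

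Genes in dense bins were short and closely packed. Their median length was 10120 bp, against 17920 bp in the other bins, and the median gap from one protein-coding start to the nearest other was 10030.5 bp against 26193 bp. Dense bins had a median GC content of 47.5% (range 41.3 to 53.7%), compared with 41.5% in the other bins, and a median of 13.5 CpG sites per kb, compared with 7.91. The first quartile of GC content over dense bins was 46.1%, above the third quartile of the other bins, 43.9%.

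The dense bins were unevenly shared among the chromosomes. Chromosome 11 held 20 of them, 16.4% of its 122 bins, and 48.3% of its peaks lay in them. Chromosome 7 held 14, chromosomes 4, 5 and 17 held 9 each, and the small chromosome 19 held 7 of its 62 bins, or 11.3%. Chromosome 12 held none. Chromosome 1, the longest, held 1 dense bin among 198. The chromosomes with the most protein-coding genes per Mb were 7 (13.6), 11 (13.6), 19 (11.8) and 17 (11.5), and these also had the largest shares of dense bins. Chromosome 12, with 5.81 genes per Mb, and chromosome 18, with 5.70, were the poorest in genes.

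**Figure D3:**
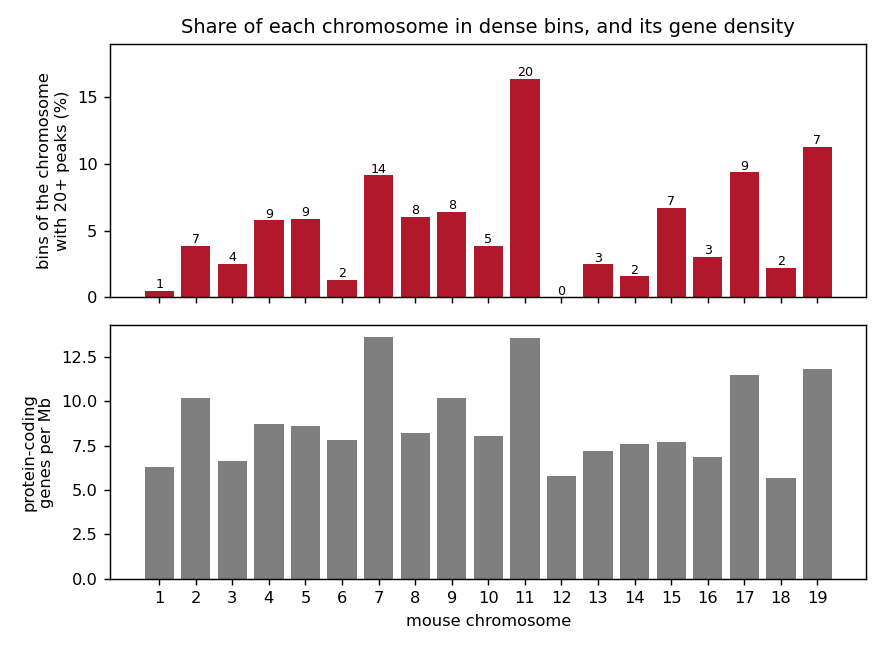
Top, the share of each chromosome's 1 Mb bins that held 20 or more peaks (%), with the number of such bins above each bar; bottom, protein-coding genes per Mb. Chromosome 11 stands highest with 20 bins (16.4%), chromosome 12 has 0, and the 4 chromosomes with the most genes per Mb have the 4 largest shares.

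Dense bins often lay side by side. Of the 120, 70 had a dense neighbour and formed 27 runs, of which 17 had 2 bins, 6 had 3, 2 had 4 and 2 had 5. The run of 5 at chr19:4000001-9000000, from Nudt8 to B3gat3 among bound genes, held 168 peaks and 188 protein-coding genes, 63.3% of them bound. The other run of 5, chr4:131000001-136000000, from Mecr to Hnrnpr, held 114 peaks and 112 genes, 60.7% of them bound. The run of 3 at chr10:79000001-82000000, from Mier2 to Zfp938, held 156 peaks and 140 genes, 61.4% of them bound. The runs of 4 lay at chr7:28000001-32000000 with 117 peaks and at chr17:24000001-28000000 with 110. Of the dense bins, 14 (11.7%) lay in the last 10% of their chromosome, near the 10.3% of all bins found there. In the first 10% lay 4 (3.33%), against 9.95% of all bins. The first 3 Mb of the chromosomes, 57 bins together, had no known bases and no peaks.

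The 2 bins with the most peaks were neighbours on chromosome 10. The bin chr10:80000001-81000000 held 69 peaks and 59 genes, 39 of them bound. Its most peaks at 1 gene were the 4 at Zbtb7a, a zinc finger transcription factor of blood cell lineages, and the 3 at Nfic, a nuclear factor I protein, while Amh, the anti-Müllerian hormone, and Atp8b3 had none. The bin before it held 63 peaks and 60 genes, 39 of them bound, with 3 peaks each at Prtn3 (a neutrophil serine protease), Sbno2 and Atp5d. The third, chr7:52000001-53000000, held 62 peaks and 69 genes, 40 of them bound. There, Dbp, a circadian transcription factor, had 4 peaks and the ribosomal protein gene Rpl13a had 3, and Cpt1c, a carnitine palmitoyltransferase of neurons, had none.

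The next 7 bins had 43 to 55 peaks each. The bin chr19:5000001-6000000 had 55 peaks, with 2 at the splicing factor gene Sf3b2 and 2 at Rab1b, which acts in transport from the endoplasmic reticulum. The bin chr8:73000001-74000000 also had 55, with 3 at Pik3r2, a regulatory subunit of phosphoinositide 3-kinase. The bin chr11:69000001-70000000 had 47, with 3 at each of the translation factor genes Eif4a1 and Eif5a. The bin chr15:76000001-77000000 had 47, of which 7 lay within 1 kb of a TSS of Plec (plectin, a cytoskeletal linker). The bin chr8:87000001-88000000 had 43, with 2 peaks at Junb, a subunit of AP-1, and 2 at Calr, calreticulin of the endoplasmic reticulum. In that bin Klf1, a transcription factor of red blood cell precursors, had no peak within 1 kb of its start, and the nearest lay 1605 bp from it.

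**Figure D4:**
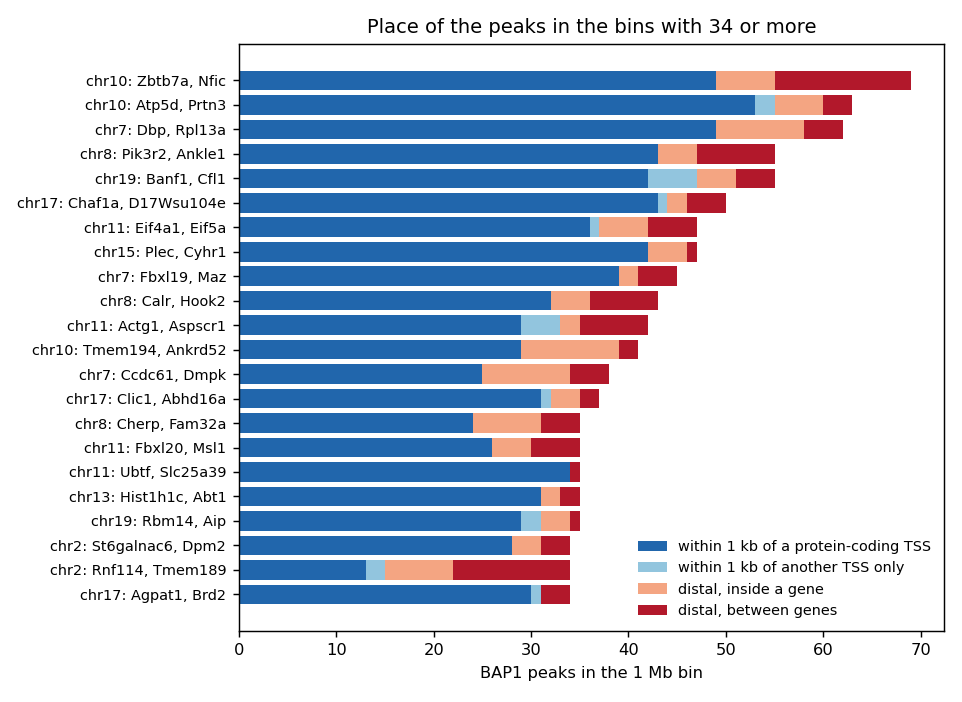
The 22 bins with 34 or more peaks, named by chromosome and by the named genes with the most peaks near a TSS; the horizontal axis counts peaks, and colours give their place. Peaks within 1 kb of a protein-coding TSS (dark blue) make up most of the peaks in the bins shown except the Rnf114 and Tmem189 bin of chromosome 2, where 19 of 34 lie away from every TSS (orange and red).

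Bound genes of dense bins more often had several peaks. Of the 2345, 738 (31.5%, 29.6 to 33.4%) had more than 1 peak, against 23.7% (22.7 to 24.8%) of bound genes elsewhere, and 82 (3.50%) had more than 2, against 1.46%. The bins were chosen by their number of peaks, so this ordering is in part built in. A peak near the starts of several genes also counts for each of them. Listed peaks can overlap, so several peaks at a gene need not be separate sites. In dense bins the distance from the middle of a peak to the nearest other one had a minimum of 101 bp and a first quartile of 361 bp, beside a peak width of 200 bp. Genes with 4 or more peaks numbered 12 in dense bins and 4 in all other bins. The gene with the most was Plec, with 7 peaks at chr15:76026136-76063242 over a gene with 16 annotated TSS positions spread over 44531 bp. Ubtf, which drives transcription of ribosomal RNA genes by RNA polymerase I, had 6 peaks and 11 TSS positions. Cic, a transcriptional repressor downstream of MAP kinase signalling, had 6 peaks and 15 positions, and Zbtb7b, a zinc finger factor of CD4 T cells, had 5 peaks and 10 positions. Zbtb7a, Srebf1, Rarg, Agpat1, Lmna, Ptp4a2, Dbp and Snx1 had 4 each. A gene with more annotated starts has more windows in which a peak can be counted. Apart from Plec, Zbtb7a and Dbp, these genes were chosen after their values were seen.

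Gene families showed which genes of the dense bins carried peaks. Over the 11 cell cycle lists, 20 of 117 genes lay in dense bins, and 20 of 20 were bound, beside 40.3% of all genes, with 87 of 97 bound elsewhere. They included Mcm7 of the replicative helicase with 3 peaks, Cdk4 and its partner Ccnd3 (cyclin D3) with 2 each, Ncapd2 of condensin with 2, and Anapc5 of the anaphase promoting complex with 2. Pola2 and Prim1, which prime DNA synthesis, Orc6 of the origin recognition complex and Cdc6, which loads the helicase, had 1 each. The lists were made by gene symbol, and the 20 also hold Cdk5, Cdk9, Cdk12 and Cdc37. A symbol alone does not show a role in the cell cycle. As nearly all listed cell cycle genes were bound outside dense bins too, this share is not particular to them.

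Genes of core cell functions lay in dense bins more often than genes at large, and most of them were bound. Of 592 genes in the housekeeping lists, 172 (29.1%) lay in dense bins, beside 18.9% of all protein-coding genes and 27.2% of all bound ones. Of the 172, 161 were bound, with 359 of 420 bound elsewhere. The bins were chosen by their peaks and most of these genes were bound, so their share in dense bins is in part built in. Of all protein-coding genes 58.1% were bound in dense bins and 40.3% over the chromosomes together. Rab GTPase genes, with 9 of 52 in dense bins (17.3%) and 7 of the 9 bound, and Usp deubiquitinase genes, with 7 of 45 (15.6%) and 5 of the 7 bound, lay below the share of 18.9%. Cytosolic ribosomal protein genes had 28 of 75 in dense bins and 27 of these bound, and Rpl3l, a form used in muscle, had no peak. Mitochondrial ribosomal protein genes had 23 of 73 in dense bins, each in a different bin, and 23 of 23 bound. RNA polymerase subunit genes had 11 of 27 there and 11 bound, among them Polr2a, the largest subunit of RNA polymerase II. Genes with Mediator symbols had 13 of 29 there and 13 bound, counting Med20 under 2 gene identifiers. Proteasome genes, counting Psmb9 under 2 identifiers, had 16 there and 14 bound, and Psmb8 and Psmb10 had no peak. Both encode subunits of the immunoproteasome, as does Psmb9, which had 1 peak.

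Clustered histone genes were concentrated in 3 dense bins, which held 56 of the 67. In chr3:96000001-97000000, 9 of 9 were bound. In chr13:21000001-22000000, 15 of 18 were bound, and in chr13:23000001-24000000, 23 of 29. Together 47 of the 56 (83.9%) were bound, beside 58.1% of all protein-coding genes in dense bins and 40.3% over the chromosomes together. Elsewhere, 7 of 11 clustered histone genes were bound. Hist1h1c, a linker histone gene, and Hist2h3c1 had 3 peaks each, while Hist1h1t, the linker histone of the testis, had none. The bins were chosen by peaks that include those at histone genes, and chr13:21000001-22000000, with 21 peaks, had 15 without peaks that share sequence with another peak, so these counts follow in part from the choice. Near-identical histone genes share reads, and peaks there can be counted for more than 1 gene.

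Zinc finger genes of the Zfp series were bound in 66 of 94 cases (70.2%) in dense bins, beside 58.1% of all genes there, and in 157 of 268 (58.6%) elsewhere. They differed from bin to bin. In chr7:30000001-31000000, 11 of 14 were bound, whereas 0 of 6 were bound in chr7:28000001-29000000, in the same run of 4 bins. In chr9:20000001-21000000, 5 of 5 were bound.

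Immune and tissue-restricted genes within the same bins were mostly without peaks. Of 55 genes in the immune lists, 3 were bound, beside 40.3% of all genes, with 12 of 142 bound elsewhere. Of 19 genes with MHC (H2-) symbols, counting H2-Q2 under 2 identifiers, 2 were bound, H2-Ke2 and H2-Ke6, which lie in the MHC but encode a prefoldin subunit and a steroid dehydrogenase. The antigen-presenting genes H2-K1, H2-D1, H2-Aa and H2-Ab1 had 0 peaks. Among 25 genes with Cd symbols 1 was bound, Cd151, a tetraspanin. The B lineage genes Cd22, Cd37, Cd72, Cd79a and Cd79b lay in dense bins and each had 0 peaks within 1 kb of a TSS. Of 11 cytokine and chemokine genes, 0 were bound. Among 82 genes of the tissue-restricted lists 0 were bound, made up of 45 olfactory receptor genes in 10 dense bins, 10 vomeronasal receptor genes, 9 Hoxc genes, 9 cytochrome P450 genes, 6 keratins and 3 serpins. Elsewhere, 7 of 1673 genes of these lists were bound.

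**Figure D5:**
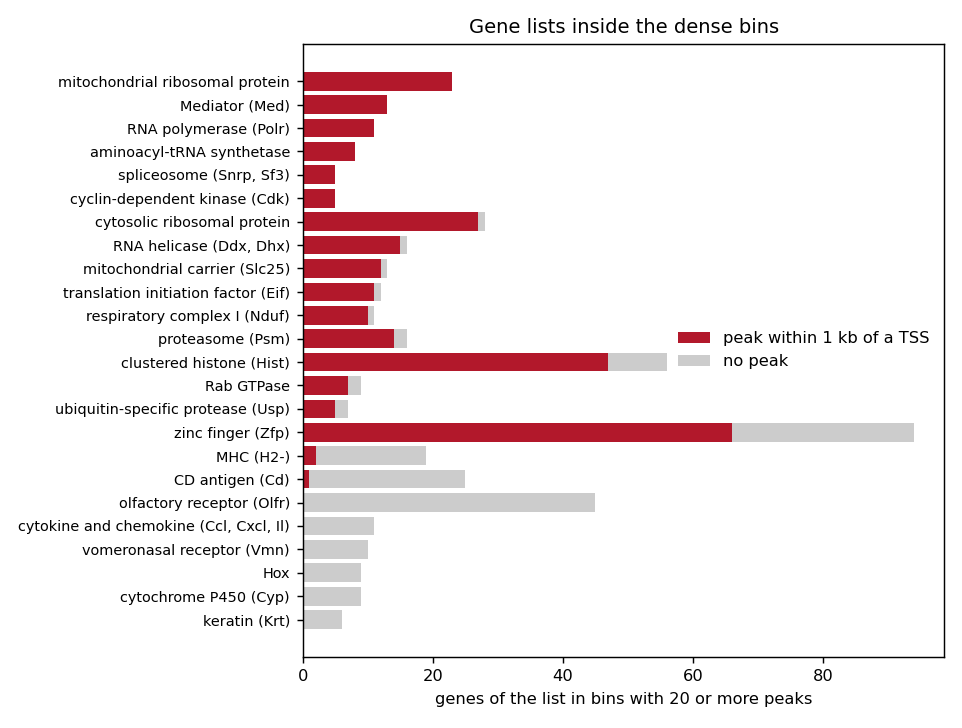
Genes of each list that lay in dense bins (lists with 5 or more such genes; horizontal axis, number of genes), split into genes with a peak within 1 kb of a TSS (red) and genes with none (grey). Most lists of core functions are nearly all red, with Rab GTPase genes red in 7 of 9 and Usp genes in 5 of 7. Clustered histones are red in 47 of 56 and zinc finger genes in 66 of 94. The MHC, CD antigen, olfactory receptor, Hox and keratin lists are nearly all grey.

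Most peaks of dense bins lay at promoters. Of the 3454, 2725 (78.9%, 77.5 to 80.2%) lay within 1 kb of a protein-coding TSS and 95 (2.75%) within 1 kb of other TSSs only. Another 308 (8.92%) lay inside a gene and 326 (9.44%) between genes. Peaks further than 1 kb from every TSS (gene-distal) thus made up 634 of 3454, or 18.4% (17.1 to 19.7%), beside 23.5% of all peaks on chromosomes 1 to 19 and 25.4% (24.6 to 26.3%) in the other bins. The share lay below 23.5% in 90 of the 120 bins, and 3 bins had no gene-distal peak. In number, however, dense bins had more gene-distal peaks, with a mean of 5.28 per bin against 1.01, and 20.9% of all such peaks lay in them.

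A median of 86.7% of the bases of a dense bin lay further than 1 kb from every TSS, against 97.4% in the other bins. At equal gene number the share of gene-distal peaks was higher in dense bins with 13 to 39 genes, and lower only in those with 40 or more. The intervals of dense and other bins overlapped except at 13 to 19 genes. That class has 9 dense bins, and 19 of its 73 gene-distal peaks lay in chr2:167000001-168000000. A bin with few genes reaches 20 peaks only with more peaks per gene, so this ordering can follow in part from the choice of the bins. In bins with 30 to 39 genes it was 16.9% (14.9 to 19.2%) in dense and 14.2% (10.9 to 18.2%) in other bins, and in bins with 13 to 19 genes 34.3% (28.2 to 40.9%) and 22.2% (20.6 to 23.97%). In bins with 20 to 29 genes it was 19.3% (16.9 to 22.006%) and 17.02% (15.1 to 19.1%). In bins with 40 to 49 genes it was 15.4% (12.7 to 18.6%) and 21.7% (13.6 to 32.8%), and in bins with 50 to 79 genes 16.8% and 18.2%, where the values of the other bins rest on 69 and 22 peaks.

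Gene-distal peaks of dense bins lay nearer to genes and to other peaks. Their median distance to a TSS was 4875 bp, against 16253 bp elsewhere, and 72.1% (68.5 to 75.4%) lay within 10 kb of one, against 37.5% (35.6 to 39.4%). Of these peaks, 48.6% lay inside a gene, against 37.0% elsewhere, and 44.3% had another peak within 5 kb, against 20.4%. Over all peaks, the median distance to the nearest other peak was 4018.5 bp in dense bins and 21082 bp elsewhere. Short spacing follows in part from the choice of the bins.

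Some gene-distal peaks stood in groups near 1 gene, and the genes named here were chosen after their values were seen. In chr11:69000001-70000000, 7 had Kdm6b, which encodes a demethylase of histone H3 lysine 27, as their nearest protein-coding gene. They ran from chr11:69222194 to 69233969, at 1739 to 6693 bp from a TSS of it, 3 of them inside the gene, and Kdm6b had 0 peaks within 1 kb of a TSS. In chr8:87000001-88000000, 3 lay 1094 to 2470 bp from Junb. In chr10:79000001-80000000, 3 lay 1124 to 1552 bp from Arid3a, a DNA-binding factor of the B cell lineage, and in the bin after it 2 lay 2832 and 2972 bp from Dot1l, a methyltransferase of histone H3 lysine 79.

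The bin with the most peaks per gene was chr2:167000001-168000000. It held 34 peaks and 15 protein-coding genes, or 2.27 peaks per gene against a median of 0.88 over dense bins. Of its peaks, 19 (55.9%) were gene-distal, the largest share of any dense bin, and 12 of these lay between genes. The share was 54.2% in chr10:81000001-82000000 and 50.0% in chr15:100000001-101000000. Rnf114, an E3 ubiquitin ligase, and Tmem189 had 3 peaks each. Cebpb, which encodes a transcription factor of myeloid cells and of the inflammatory response, lies in this bin at chr2:167514415-167515918 and had 2 peaks within 1 kb of a TSS. In the stretch between it and Ptpn1, which encodes a tyrosine phosphatase, 10 peaks were listed, 9 of them gene-distal, from 9172 to 236196 bp after the start of Cebpb. Of the gene-distal peaks of the bin, 6 had Tmem189 as the nearest protein-coding gene, 4 had Ptpn1 and 1 had Cebpb. The 1 nearest to Cebpb, at chr2:167505588-167505787, lay outside this stretch. The 5′ end of Tmem189, at chr2:167515322, lies inside Cebpb, so the same peak can count for both genes. Cebpb was chosen for description after its values were seen.

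Peaks at TSSs of non-coding genes were few but clustered. Of the 95 in dense bins, 37 (38.9%, 29.8 to 48.9998%) had a small nuclear or small nucleolar RNA gene as the nearest non-coding gene, against 22 of 162 (13.6%, 9.14 to 19.7%) in the other bins. These genes, and the other non-coding genes named with them, were chosen after the values were seen. U1, U2, U4, U5 and U11 are RNAs of the spliceosomes, and U3 guides the cleavage of ribosomal RNA precursors. Of 6 annotated U5 copies in dense bins, 6 had a peak within 1 kb of their start, and of 4 elsewhere 0 did. For U2 the numbers were 4 of 12 in dense bins and 1 of 34 elsewhere, for U3 4 of 8 and 0 of 16, and for U1 4 of 24 and 6 of 170. For U6, which RNA polymerase III transcribes, they were 7 of 98 and 10 of 773, for U4 2 of 4 and 0 of 38, for U7 0 of 4 and 1 of 107, for U11 1 of 1 and 0 of 2, and for U12 0 of 1 and 2 of 5. Of all non-coding genes, 6.72% had a peak within 1 kb of a TSS, 268 of 1415 (18.9%) in dense bins and 621 of 11820 (5.25%) elsewhere. The bound copies of U2, U3 and U4 in dense bins lay in 1 bin each, and those of U5 in 3. The bins were chosen by peaks that include these, so the difference between dense bins and elsewhere follows in part from the choice. A peak within 1 kb can also belong to a neighbouring gene.

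These peaks came in groups within single bins. In chr11:101000001-102000000, 7 peaks lay at 4 U2 copies, and in chr4:116000001-117000000, 5 lay at 3 U5 copies. In chr9:65000001-66000000, 3 lay at 2 U5 copies. In chr3:96000001-97000000, the bin with one of the histone clusters, 3 lay at 2 U1 copies and 2 at a gene annotated as telomerase RNA. In chr4:131000001-132000000, 2 lay at U11, at 84 and 128 bp from its start. Non-coding genes with 2 peaks included Malat1 and Neat1, long RNAs of nuclear speckles and paraspeckles, both in chr19:5000001-6000000. At each of these genes the 2 peaks overlapped.

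The bin chr11:87000001-88000000 held 26 peaks (17 without those that share sequence with another peak), and of the 26, 12 lay at non-coding TSSs, the most of any dense bin, and 8 of its 21 protein-coding genes were bound. Inside Tex14, a gene of germ cell bridges at chr11:87218567-87369325, 8 peaks lay at 4 copies of the U3 gene, with 1 before and 1 over each copy. For 2 of the copies, the peak before the start and the peak over the gene are printed, plus strand of mm9, with capitals for bases that lie in a run of 50 bases found, on either strand, in another peak of the list. Their middles lay 134 and 130 bp before the start and 94 and 114 bp after it.

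Before U3, chr11:87261895-87262094: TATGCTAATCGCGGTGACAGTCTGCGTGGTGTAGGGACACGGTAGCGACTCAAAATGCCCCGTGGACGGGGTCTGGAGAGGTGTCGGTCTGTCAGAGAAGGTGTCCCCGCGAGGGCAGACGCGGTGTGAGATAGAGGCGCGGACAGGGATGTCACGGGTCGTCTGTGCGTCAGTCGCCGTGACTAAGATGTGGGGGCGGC
Before U3, chr11:87284640-87284839: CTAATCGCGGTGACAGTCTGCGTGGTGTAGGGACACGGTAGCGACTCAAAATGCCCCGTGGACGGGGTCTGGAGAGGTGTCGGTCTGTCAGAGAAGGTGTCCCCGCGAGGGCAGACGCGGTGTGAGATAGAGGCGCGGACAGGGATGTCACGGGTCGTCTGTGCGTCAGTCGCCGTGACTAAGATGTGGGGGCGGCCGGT
Over U3, chr11:87262123-87262322: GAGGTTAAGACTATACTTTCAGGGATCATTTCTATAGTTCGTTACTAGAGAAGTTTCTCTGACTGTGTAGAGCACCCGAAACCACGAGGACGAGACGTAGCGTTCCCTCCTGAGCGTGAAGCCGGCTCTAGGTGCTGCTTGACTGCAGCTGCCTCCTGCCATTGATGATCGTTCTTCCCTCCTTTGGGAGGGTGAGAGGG
Over U3, chr11:87284884-87285083: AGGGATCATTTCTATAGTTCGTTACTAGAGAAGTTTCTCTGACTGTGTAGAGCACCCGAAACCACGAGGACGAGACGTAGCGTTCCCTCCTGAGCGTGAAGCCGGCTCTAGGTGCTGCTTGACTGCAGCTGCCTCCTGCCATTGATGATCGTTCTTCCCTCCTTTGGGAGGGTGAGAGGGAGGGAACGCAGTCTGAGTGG

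Each of these 4 peaks was in capitals over 100% of its bases, so that reads of 50 bp from one copy match another as well. The peaks before and over the other 2 copies had 74.0 to 95.5% of their bases in such runs. The copies cannot be told apart from such reads taken singly.

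A like pattern stood in chr10:81000001-82000000, the bin with 54.2% of its 24 peaks gene-distal and 8 of 21 genes bound. There 6 peaks lay as 3 pairs, each pair 10611 to 10949 bp before the start of Gm8112, Gm8137 or Gm8158, which are predicted genes. One peak of each pair is printed with the same use of capitals.

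Before Gm8112, chr10:81167522-81167721: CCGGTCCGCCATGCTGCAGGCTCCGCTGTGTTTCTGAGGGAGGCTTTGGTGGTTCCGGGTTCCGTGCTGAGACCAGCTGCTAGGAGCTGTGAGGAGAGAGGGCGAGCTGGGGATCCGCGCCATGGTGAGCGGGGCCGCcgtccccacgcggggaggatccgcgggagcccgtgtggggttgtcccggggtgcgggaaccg
Before Gm8137, chr10:81326569-81326768: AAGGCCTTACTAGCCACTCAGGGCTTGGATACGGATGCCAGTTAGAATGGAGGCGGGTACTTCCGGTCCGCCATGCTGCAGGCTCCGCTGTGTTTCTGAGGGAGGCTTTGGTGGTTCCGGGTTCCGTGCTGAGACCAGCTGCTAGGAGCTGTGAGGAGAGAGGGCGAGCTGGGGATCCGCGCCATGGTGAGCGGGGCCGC
Before Gm8158, chr10:81459658-81459857: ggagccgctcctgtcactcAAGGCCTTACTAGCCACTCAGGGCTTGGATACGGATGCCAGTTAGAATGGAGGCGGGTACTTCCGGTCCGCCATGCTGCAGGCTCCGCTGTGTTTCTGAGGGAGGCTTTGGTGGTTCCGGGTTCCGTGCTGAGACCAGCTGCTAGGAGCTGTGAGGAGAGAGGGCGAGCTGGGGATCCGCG

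Of their bases, 69.0%, 100% and 90.5% lay in shared runs. Over all dense bins, 57 of 3454 peaks (1.65%, 1.28 to 2.13%) had at least 50% of their runs of 50 bases in another peak, against 441 of 9409 (4.69%, 4.28 to 5.13%) in the other bins, and they lay in 22 of the 120 bins. Next to the 2 bins above, with 9 and 6 such peaks, the histone bins of chromosome 13 had 6 each. Without these peaks 115 bins remained at 20 or more, and all 115 were among the 120. The 5 that fell below were chr10:81000001-82000000 (18 left), chr11:87000001-88000000 (17), chr13:21000001-22000000 (15), chr19:45000001-46000000 (19) and chr5:23000001-24000000 (19). How reads that match several places were treated is not given in the sources used here, and peak calls at such copies depend on it. The part of shared sequence in the peak calls was not tested.

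Other bins at the extremes had fewer genes bound or more peaks away from genes. The lowest share bound was in chr15:98000001-99000000, with 14 of 39 genes, 9 of them olfactory receptors without a peak, while the splicing helicase gene Ddx23 and Ccnt1, cyclin T1 of the elongation factor P-TEFb, had 2 peaks each. In chr4:133000001-134000000, 13 of 34 genes were bound, among them Arid1a, a subunit of the SWI/SNF remodelling complex, with 2 peaks. In chr15:100000001-101000000, 8 of 22 were bound and 50.0% of the 20 peaks were gene-distal, 3 of these nearest to the iron transporter gene Slc11a2. In chr8:124000001-125000000, 44.0% of 25 peaks were gene-distal and 11 lay inside genes, and Zfpm1 (FOG1), a partner of GATA factors, had 2 peaks. In chr4:134000001-135000000, with 1.47 peaks per gene, 14 of 17 genes were bound, and Runx3, a Runt family transcription factor, and Stmn1, a regulator of microtubules, had 2 peaks each.

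Exact matches to short motifs were counted in peaks of dense bins and of the other bins. At least 1 of the 13 motifs was found in 55.6% of peaks in dense bins and 52.0% elsewhere. The ETS motif CCGGAAG was found in 16.6% (15.4 to 17.9%) of peaks in dense bins and 16.9% elsewhere, SP and KLF (GGGGCGGGG) in 22.2% (20.8 to 23.6%) and 18.97% (18.2 to 19.8%), and YY1 (AAGATGGCG) in 3.56% and 2.69%. For NRF1 (GCGCATGCG) the shares were 3.79% and 3.04%, for CTCF (AGGGGGCG) 9.87% and 9.49%, for CRE (TGACGTCA) 2.58% and 2.91%, and for the E-box (CACGTG) 7.38% and 7.01%. E2F (TTTCCCGC), ZNF143 and THAP11 (CTACAANTC), RUNX (TGTGGTTT) and PU.1 (GAGGAAGTG), as well as the AP-1 motif TGANTCA and the shorter GATA motif AGATAAG, were each found in under 4% of peaks in dense bins, from 0.753% for RUNX to 3.59% for AP-1. Both strands were searched, and 2.92% of peaks in dense bins held motifs that overlap each other.

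Peaks at promoters and windows at unbound starts of the same bins differed more. ETS was found in 19.01% of the 2725 peaks at protein-coding promoters of dense bins and in 3.48% of the 200 bp at the 1693 unbound protein-coding starts there, beside 9.49% of all protein-coding promoters. Among the 338 unbound promoters that were CpG-rich, it was found in 5.03%. SP and KLF matches, by contrast, were found in 24.6% of the promoter peaks and in 22.2% of the unbound CpG-rich promoters. These windows differ in placement, since those of bound promoters lie on peaks and those of unbound ones on annotated starts. They held 90.6 CpG sites per kb in promoter peaks, 42.2 at unbound starts and 102 at the CpG-rich ones among these. The part of window placement and base composition was not tested. Gene-distal peaks differed between the sets, with at least 1 motif in 42.6% of those in dense bins and 29.5% of those elsewhere, SP and KLF in 13.2% and 6.27%, and 42.2 against 29.6 CpG sites per kb. A match is a run of letters and does not show that a factor was bound.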

How the data were processed

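ChIP-Seq reads were paired-end and 50 bp long. Per the authors' methods and the submitters' processing notes, they were mapped to mm9 with Bowtie 1.0.0, and peaks were called with MACS 1.4.2 against input DNA. The deposited values are other than counts or signal: the authors gave positions in bp of 13164 peaks, each 200 bp wide, without a score. The peak-calling threshold and how the samples were joined are not given in the sources used here, and another threshold would change which bins reach 20 peaks.

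Peaks were placed on GENCODE release M1 (build NCBIM37, the same as mm9), with distances taken from the middle of a peak to the nearest TSS of any transcript. The comparison was of 120 dense bins with the other bins, with no test and Wilson intervals of 95%. Bins named in the text were those with most peaks, most peaks per gene, lowest share bound and largest gene-distal share, with their genes of most peaks and some with none, as well as members of 37 gene lists. The members, lists and motifs were chosen with earlier results of these data known. Alternatives were other minimums, windows, TSS sets, bin starts and merged peaks. Distances, gene calls, bin counts and merging were tested on simulated data against direct enumeration. Python 3.11.15, numpy 2.4.6, pandas 2.3.3 and scipy 1.17.1 were used.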

Additional observations from a re-analysis of the deposited data

How the results depend on the processing

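In all 9 alternatives for the share of genes bound, this share was higher in dense bins, and in all 10 for the gene-distal share, that share was lower in dense bins. Each alternative again chose bins by their number of peaks, so the direction of the share bound is in part built in. None of the 10 held the number of genes equal, and at equal number the gene-distal share was higher in dense bins with 13 to 39 genes. That ordering can also follow in part from the choice of the bins. The median number of protein-coding genes stayed within 1.5 times its value in the 6 alternatives tried. A minimum of 15 peaks gave 230 bins with 5277 peaks, and a minimum of 30 gave 37 bins with 1446. With merged peaks there were 87 dense bins and with bins from position 500000 there were 128. For dense bins, the share bound moved outside its interval to 55.9% with a minimum of 15, 56.0% with a window of 500 bp, 60.005% with 2 kb and 55.2% with 1 TSS per gene. For the other bins it moved to 33.4% with a minimum of 15, 38.7% with 30, 35.4% with 500 bp, 34.3% with 1 TSS per gene and 37.1% with merged peaks. For dense bins, the gene-distal share moved to 22.7% with 500 bp, 14.04% with 2 kb, 21.1% with protein-coding TSSs, 26.2% with 1 TSS per gene and 20.7% with merged peaks. For the other bins it moved to 26.9% with a minimum of 15, 24.1% with 30, 28.2% with 500 bp, 23.3% with 2 kb, 27.2% with protein-coding TSSs, 30.9% with 1 TSS per gene and 27.5% with merged peaks. Without peaks that share sequence, an alternative chosen after seeing the data, it was 22.8%, and 115 bins with 3309 peaks remained dense. Each setting changes what is counted, by its own construction. No paired analysis was possible because the 2 samples were deposited as 1 list. Precision is limited by the unknown depth and by the lack of replicates.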

Other observations

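The sex chromosomes were outside the bins described. The X chromosome had 300 peaks, its fullest 1 Mb bin held 25, and 2 of its bins held 20 or more. The Y chromosome had 1 peak.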
